A study of Mus musculus with 12 samples.

Results

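Gluconeogenesis and glycerol use were followed through 10 genes, chosen by symbol from the 48795 genes of the table: Pcx, Pck1, Pck2, Fbp1, G6pc, G6pc3, Slc37a4, Aqp9, Gk and Gpd1. All 10 passed the filter on low counts, as did 13812 genes in all. Liver RNA was sequenced from 12 female mice aged 4 months and kept on normal chow, 3 in each of 4 groups. The groups were fed mice labelled NTS WT, fed mice labelled NTS KO, and mice of both labels fasted for 22 h. NTS KO stands for whole-body loss of the gene of neurotensin, a gut peptide (Nts-/-), and NTS WT for its Nts+/+ counterpart. Both came from crosses of Nts+/- mice, the deletion is not restricted to the liver, and each mouse is 1 animal with 1 library. The study asked how NTS deficiency bears on energy metabolism in the fed and the fasted liver.

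Gluconeogenesis is the route by which the liver makes glucose from lactate, alanine and glycerol when food is short. Pyruvate is carboxylated to oxaloacetate in mitochondria and turned into phosphoenolpyruvate, the chain is run backwards to fructose 1,6-bisphosphate and glucose 6-phosphate, and the last phosphate is removed inside the endoplasmic reticulum. Glycerol set free from fat enters hepatocytes through a membrane channel, is phosphorylated, and joins the chain after oxidation to dihydroxyacetone phosphate. Glucagon and glucocorticoids raise transcription of several of these genes in fasting, and insulin lowers it after a meal.

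Counts of the targeted gene were seen only under the NTS KO label. Nts had 0 counts in all 6 libraries labelled NTS WT and between 4 and 46 counts in each of the 6 labelled NTS KO. The paper places the peptide in the central nervous system and in cells of the small intestine. As a further source for the liver it names lymphatic endothelial cells of adipose tissue. The source of the Nts counts was not tested, so every genotype comparison here is one between labels. By feeding state, 7 of 8 genes known to be induced by fasting were higher and 7 of 8 known to be induced by feeding were lower in fasted livers (edgeR quasi-likelihood test, both genotypes averaged). Of all genes tested, 16% were higher and 16.8% lower. Hepatocyte markers were abundant throughout, with a summed level of 113433 to 149371 TMM-normalized CPM, a count scaled to library size and then between libraries by the trimmed mean of M values. Libraries held 21999647 to 45273069 counts, so that 3 counts, taken as the floor, came to between 0.0709 and 0.142 CPM.

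The start regions of 4 genes are shown because Pck1, Slc37a4 and Gk were higher in fasted livers and Fbp1 was not. Each is the 250 bases before the RefSeq gene start (build GRCm38.p6), 5′ to 3′ on the gene's strand. Capitals mark a match to 1 of 5 motifs searched on both strands: the cyclic AMP response element TGACGTCA and its shorter core TGACG, which lies within it, the FoxO core TTTGTT, the glucocorticoid receptor core AGAACA and the TATA box TATAAA.
Pck1, chr2:173152823-173153072, plus strand: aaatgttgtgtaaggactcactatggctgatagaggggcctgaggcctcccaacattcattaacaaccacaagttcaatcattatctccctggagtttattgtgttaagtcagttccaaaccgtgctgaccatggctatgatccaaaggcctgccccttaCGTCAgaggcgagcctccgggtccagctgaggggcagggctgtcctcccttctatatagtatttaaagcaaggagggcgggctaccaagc
Slc37a4, chr9:44396696-44396945, plus strand: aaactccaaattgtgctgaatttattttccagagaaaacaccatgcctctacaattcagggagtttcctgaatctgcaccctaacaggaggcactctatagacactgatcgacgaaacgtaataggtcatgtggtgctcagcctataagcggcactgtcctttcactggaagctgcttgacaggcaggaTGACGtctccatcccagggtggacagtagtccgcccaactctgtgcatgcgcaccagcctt
Gk, chrX:85776820-85777069, minus strand: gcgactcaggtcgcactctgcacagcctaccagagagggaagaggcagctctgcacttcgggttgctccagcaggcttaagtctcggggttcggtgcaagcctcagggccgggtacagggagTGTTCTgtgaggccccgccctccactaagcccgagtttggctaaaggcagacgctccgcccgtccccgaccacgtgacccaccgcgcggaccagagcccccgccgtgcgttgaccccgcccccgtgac
Fbp1, chr13:62888283-62888532, minus strand: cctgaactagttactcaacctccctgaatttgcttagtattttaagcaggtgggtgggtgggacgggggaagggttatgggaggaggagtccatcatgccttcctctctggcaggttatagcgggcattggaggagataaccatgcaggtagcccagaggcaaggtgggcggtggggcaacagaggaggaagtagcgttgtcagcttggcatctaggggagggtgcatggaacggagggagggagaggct
The Pck1 window held TGACG on the opposite strand, 90 to 86 bases before the start, and that of Slc37a4 held it on the gene's own strand, 61 to 57 bases before. Slc37a4 has 3 starts in the table, and the window shown is that of start 1. It ends at base 44396945, upstream of the gene as the count table places it, from base 44398176. Start 2 held TGACG on both strands, while start 3, whose window lies inside the gene as the count table places it over 178 bases, held only the TATA box of the motifs searched. The core TGACG was present in 17.8% of the 32851 promoters of the same table and TGACGTCA in 1.55%. Gk held AGAACA on the opposite strand, 128 to 123 bases before its start, a motif found in 16.1% of promoters. The Fbp1 window matched none of the letters searched. The same held for the windows of Pcx, which was higher in fasted livers, and of Pck2, which did not pass. Of the other members with an entry, G6pc held TATAAA, found in 12.4% of promoters, 29 to 24 bases before its start. G6pc3, which did not pass, held AGAACA 190 to 185 bases before its start. At the first of its starts Aqp9 held AGAACA and TTTGTT, the latter found in 18.0%. In all, 9 of the 10 members had an entry, with 13 starts between them, and 25 bases of the Pck1 window, 155 of the G6pc window and all 250 of the Aqp9 window lie inside the gene as the count table places it. A match is a run of letters and not a measured binding site.

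Per transcript length, the members fell into an abundant and a scarce class in every group. In fed livers labelled NTS WT, Fbp1 led with 646.8 ± 21.3 CPM per kilobase (mean ± SD, n = 3), followed by Pck1 with 478 ± 145 and G6pc with 144 ± 33.0. Gpd1 stood at 103 ± 7.56, Pcx at 84.8 ± 5.41, Aqp9 at 70.8 ± 12.2, Slc37a4 at 29.7 ± 5.83 and Gk at 23.9 ± 6.63 CPM per kilobase. G6pc3 reached 0.970 ± 0.156 and Pck2 0.414 ± 0.142. In that order the mice of G6pc and Gpd1, of Pcx and Aqp9, and of Slc37a4 and Gk overlapped, so these neighbours could not be ranked. After 22 h of fasting Pck1 led, at 955 ± 128 CPM per kilobase, and all 3 mice lay above the highest mouse of Fbp1, which averaged 575.6 ± 68.5. In livers labelled NTS KO the means of the leading pair also changed places, though their mice overlapped in both feeding states, from 386 ± 246 for Pck1 and 662 ± 94.4 for Fbp1 when fed to 1101 ± 314 and 785 ± 80.9 when fasted. The lengths used are those of the longest annotated transcript, and with the median transcript length 3 members changed place in fed NTS WT, 0 in fasted NTS WT, 4 in fed NTS KO and 2 in fasted NTS KO livers.

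**Figure D1:**
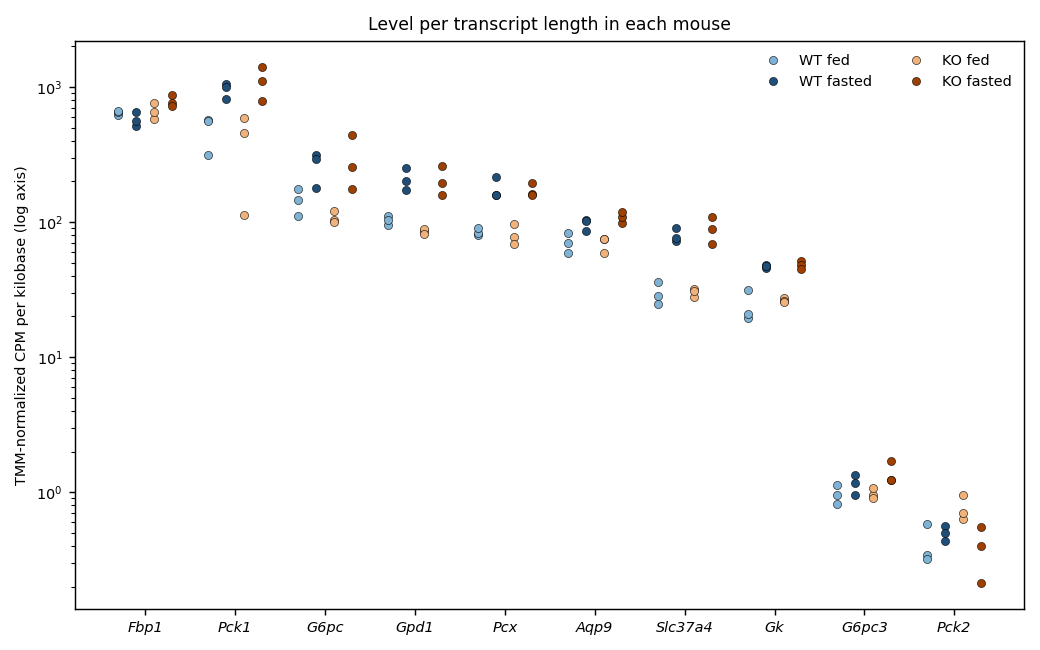
Level of each member in each mouse as TMM-normalized CPM per kilobase of the longest transcript, on a log axis, with members ordered by their mean in fed NTS WT livers and 1 point per mouse (3 per group). Pck2 and G6pc3 lie far below the other 8 members, and the mean of Pck1 is above that of Fbp1 in both fasted groups, with overlapping mice under the NTS KO label.

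Fasting raised most of the route. With both genotypes averaged, 7 of the 10 members were higher in fasted livers and 0 were lower (edgeR quasi-likelihood test, Benjamini-Hochberg adjusted p under 0.05 over all 13812 genes). Slc37a4, Pck1, G6pc, Gpd1, Pcx, Gk and Aqp9 were the 7. Of all genes tested, 16% were higher and 16.8% lower in that comparison. The median log2 fold change of the members was 1.00, and that of all genes was -0.01. Within livers labelled NTS WT, 4 members were higher (Pcx, Slc37a4, Gk and Gpd1), against 8.91% of all genes higher and 9.19% lower. Within livers labelled NTS KO, 6 were higher, the same 4 with G6pc and Aqp9, against 7.7% higher and 9.14% lower. DESeq2 called 6 members in NTS WT livers, all higher, against 20.9% of all genes in either direction. In NTS KO livers it called 8, of which 7 were higher and Pck2 was lower, against 20.2% of all genes. Fed and fasted mice did not overlap for 7 members in NTS WT livers, where 36% of all genes did not overlap, and for 9 in NTS KO livers, where 35.2% did not. In bulk liver, fewer cells of a type and less RNA per cell cannot be told apart.

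The entry into the chain is made by Pcx, pyruvate carboxylase (chr19:4510472-4621752, GRCm38, the build of all gene positions here). The 3 fed NTS WT livers held 370, 380 and 417 CPM and the 3 fasted ones 726, 732 and 989, so the groups lay well apart. Under the NTS KO label the fed mice held 316, 356 and 440 CPM and the fasted mice 730, 737 and 891. The change was 2.09-fold in NTS WT (log2 fold change 1.07, SE 0.17, adjusted p = 0.000987) and 2.12-fold in NTS KO livers (1.08, SE 0.17, adjusted p = 0.00074). The ratio of the folds, NTS KO to NTS WT, was 1.01 with a 95% interval of 0.716 to 1.43.

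Pck1, the cytosolic phosphoenolpyruvate carboxykinase (chr2:173153048-173159273), was the member with the largest standard errors, and its fed NTS KO mice had a coefficient of variation of 63.6%. Fed NTS WT livers held 896, 1611 and 1628 CPM, and fasted ones 2339, 2878 and 3043. Fed NTS KO livers held 326, 1319 and 1699 CPM, and fasted ones 2263, 3189 and 4074. Every fasted liver was above every fed liver of its label, and 1 fed NTS KO mouse, number 303, stood far below its group. The fold was 2.00 in NTS WT livers (log2 1.00, SE 0.49, adjusted p = 0.194) and 2.85 in NTS KO livers (log2 1.51, SE 0.50, adjusted p = 0.0653), so neither passed by edgeR, while the average of both did, at 2.39-fold (log2 1.25, SE 0.35, adjusted p = 0.0201). That call was lost without the count filter (adjusted p = 0.0601). Under the NTS KO label the gene passed without mouse 303 (log2 1.08, adjusted p = 0.0354), without mouse 319 (log2 1.95, adjusted p = 0.0369) and in DESeq2 (adjusted p = 0.00718), and in NTS WT livers it passed when those 6 mice were fitted alone (adjusted p = 0.0232).

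Pck2 encodes the mitochondrial form of the same enzyme (chr14:55540266-55550017) and was scarce, with 25 to 129 counts per library. Its level was 1.73, 1.85 and 3.10 CPM in fed and 2.35, 2.68 and 3.04 CPM in fasted NTS WT livers, which overlap. Under the NTS KO label it was 3.41, 3.80 and 5.12 CPM fed and 1.15, 2.16 and 2.98 CPM fasted, with no overlap. The log2 difference was 0.28 in NTS WT (SE 0.32, adjusted p = 0.594) and -0.94 in NTS KO livers (SE 0.32, adjusted p = 0.0572), neither past the threshold. The latter passed with upper-quartile scaling (adjusted p = 0.0454), without the count filter (adjusted p = 0.049996), in DESeq2 (adjusted p = 0.0355) and without mouse 295 (adjusted p = 0.0268). Pck2 was the only member whose fasting difference was negative in the average of both labels, at -0.33 (SE 0.23, adjusted p = 0.284).

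Fbp1, fructose-1,6-bisphosphatase of liver (chr13:62864753-62888282), hydrolyses fructose 1,6-bisphosphate. It held 990, 1043 and 1053 CPM in fed and 817, 896 and 1032 CPM in fasted NTS WT livers. In NTS KO livers it held 914, 1034 and 1212 CPM fed and 1152, 1197 and 1394 CPM fasted. Both pairs of groups overlapped. By edgeR the fold was 0.890 in NTS WT (log2 -0.17, SE 0.15, adjusted p = 0.464) and 1.18 in NTS KO livers (log2 0.24, SE 0.15, adjusted p = 0.278). The average joins these opposite signs, at a fold of 1.03 with a 95% interval of 0.880 to 1.20 (adjusted p = 0.81). Fbp1 was thus abundant in all 4 groups with no fasting difference past the test.

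The last step is shared by G6pc, the catalytic subunit of glucose-6-phosphatase in liver (chr11:101367561-101377903), and Slc37a4, the carrier that brings glucose 6-phosphate into the endoplasmic reticulum (chr9:44398176-44402963). G6pc held 268, 353 and 428 CPM in fed and 433, 709 and 762 CPM in fasted NTS WT livers, a narrow gap between groups. In NTS KO livers it held 243, 251 and 295 CPM fed and 429, 622 and 1078 CPM fasted. The rise was 2.70-fold in NTS KO livers (log2 1.43, SE 0.31, adjusted p = 0.00949), while the 1.82-fold difference in NTS WT livers missed the threshold by edgeR (log2 0.86, SE 0.31, adjusted p = 0.0766) and passed in DESeq2 (adjusted p = 0.0189). It also passed when the 6 NTS WT mice were fitted alone (adjusted p = 0.0433).

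Slc37a4 had the largest fasting difference of the 10. Fed NTS WT livers held 77.0, 88.8 and 113 CPM and fasted ones 227, 238 and 282, and fed NTS KO livers held 87.6, 95.7 and 100.4 CPM and fasted ones 216, 277 and 341. No fed liver came near a fasted one. The rise was 2.68-fold in NTS WT (log2 1.42, SE 0.18, adjusted p = 0.000261) and 2.94-fold in NTS KO livers (log2 1.56, SE 0.18, adjusted p = 0.000114).

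G6pc3 is the glucose-6-phosphatase expressed in most tissues (chr11:102189620-102194081). It held 3.46, 4.01 and 4.76 CPM in fed and 4.03, 4.88 and 5.65 CPM in fasted NTS WT livers, which overlap. Fed NTS KO livers held 3.83, 3.99 and 4.49 CPM and fasted ones 5.17, 5.18 and 7.19. Averaged over labels the fold was 1.30 (log2 0.38, SE 0.14, adjusted p = 0.0509), just short of the threshold. It passed with another scaling, the relative log expression size factors (adjusted p = 0.0447), in DESeq2 (adjusted p = 0.039), and without mouse 254, 265, 284 or 295 (log2 0.45, 0.44, 0.43 and 0.42).

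All 3 genes of the glycerol branch rose in the average of both labels. Aqp9, the channel through which glycerol enters hepatocytes (chr9:71110659-71168682), held 309, 369 and 437 CPM in fed and 449, 537 and 545 CPM in fasted NTS WT livers. In NTS KO livers it held 309, 391 and 394 CPM fed and 520, 574 and 619 CPM fasted. Its rise was the smallest of the 7 called, at 1.57-fold in NTS KO livers (log2 0.65, SE 0.16, adjusted p = 0.0132). In NTS WT livers the 1.37-fold difference did not pass (log2 0.46, SE 0.16, adjusted p = 0.0593), though it did in DESeq2 (adjusted p = 0.022) and without mouse 323 (log2 0.59, adjusted p = 0.028) or mouse 265 (log2 0.55, adjusted p = 0.0464).

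Gk encodes glycerol kinase, which phosphorylates glycerol (chrX:85701937-85776819). Its fasted levels were the most even of the set, at 207, 216 and 220 CPM in NTS WT and 205, 219 and 236 CPM in NTS KO livers. Fed NTS WT livers held 87.8, 95.3 and 143 CPM and fed NTS KO livers 115, 117 and 124. The rise was 1.97-fold in NTS WT (log2 0.98, SE 0.16, adjusted p = 0.0014) and 1.85-fold in NTS KO livers (log2 0.89, SE 0.16, adjusted p = 0.00244).

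Gpd1, the cytosolic glycerol-3-phosphate dehydrogenase (chr15:99717515-99725005), links glycerol 3-phosphate with dihydroxyacetone phosphate. It held 280, 302 and 324 CPM in fed and 503, 589 and 734 CPM in fasted NTS WT livers. Fed NTS KO livers held 239, 251 and 260 CPM and fasted ones 462, 568 and 764. The rise was 2.01-fold (log2 1.01, SE 0.18, adjusted p = 0.00249) and 2.39-fold (log2 1.26, SE 0.18, adjusted p = 0.000518), in that order, and the groups were well separated under both labels.

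**Figure D2:**
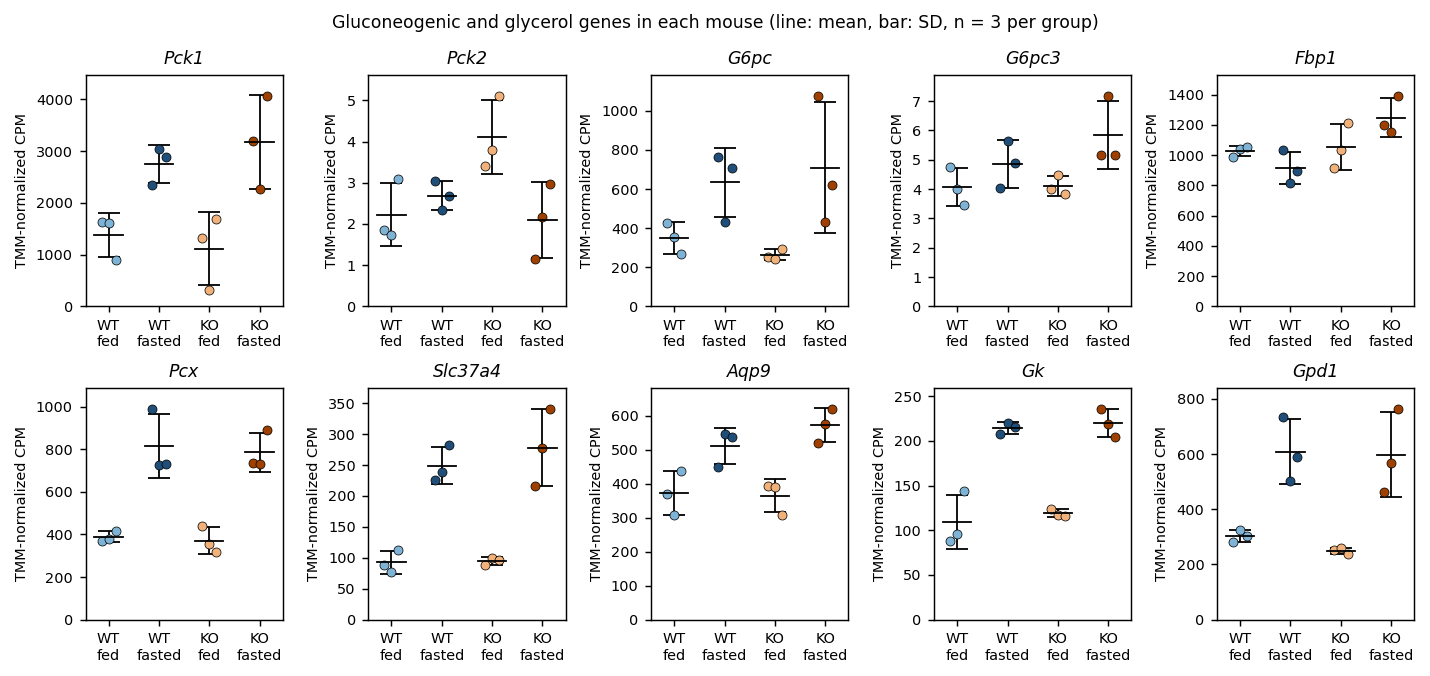
TMM-normalized CPM of the 10 members, 1 panel per gene with an axis from 0, 1 point per mouse, with the mean (line) and SD (bar) of 3 mice per group. Pcx, Slc37a4, Gk and Gpd1 separate fed from fasted livers under both labels, 1 fed NTS KO mouse is low in Pck1 at 326 CPM, and Fbp1 overlaps in both pairs of groups.

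Other measures moved with feeding state beside these genes. Mouse 323, a fed NTS WT liver, had a summed level of 3113 CPM for the 8 genes induced by feeding, against 8841 and 10708 CPM in its group mates. It was also the highest fed NTS WT liver for Slc37a4, Gk, Aqp9, Pcx, Pck2 and Fbp1 and the lowest for Pck1, G6pc and G6pc3. Without it, 5 members passed in NTS WT livers in place of 4, and 17.1% of all genes passed in either direction. Mouse 303, the fed NTS KO liver low in Pck1, had the highest sum of all 12 mice for the genes induced by feeding, 13782 CPM. Its sum for the 8 genes induced by fasting was the lowest, 3634 CPM. The 8 markers of pericentral hepatocytes, the zone around the central vein, summed to 4516 to 9231 CPM in fed and 12362 to 16835 CPM in fasted livers, and those of the periportal zone, where gluconeogenesis is strongest, summed to 8421 to 10893 CPM fed and 8437 to 17680 CPM fasted. The 6 endothelial markers summed to 145 to 207 CPM fed and 120 to 145 CPM fasted, and the 6 stellate cell markers to 362 to 441 CPM fed and 323 to 365 CPM fasted. Single pericentral, periportal and endothelial markers went both ways in the average of both labels. By edgeR 4 pericentral markers were higher and 1 lower, 3 periportal ones higher and 2 lower, and 1 endothelial one higher and 3 lower. The stellate list had 3 lower, the Kupffer cell list 2 and the cholangiocyte list 1, with 0 higher in each. Among lymphocyte markers 0 passed. Beside these counts, 16% of all genes tested were higher and 16.8% lower. The median log2 change of the periportal markers was 0.37 under the NTS WT and -0.21 under the NTS KO label. The 7 Kupffer cell markers gave 260 to 493 CPM fed and 210 to 413 CPM fasted, the 5 cholangiocyte markers 33.4 to 49.7 and 13.7 to 29.6 CPM, and the 7 lymphocyte markers 4.67 to 7.86 and 4.35 to 8.66 CPM. The 5 adipocyte markers rose from a summed 0.147 to 1.24 CPM fed to 40.0 to 70.9 CPM fasted, nearly all of it Cidec, a lipid droplet gene that fasted hepatocytes also express, while Adipoq, Plin1 and Cfd had group means of at most 0.0953 CPM and Lep was at 0 in every library. The 7 intestinal markers summed to 43.1 to 96.8 CPM fed and 112 to 212 CPM fasted, most of it Fabp2, with 2 of the 7 at 0 in all 12 libraries. Kidney, the other organ that makes glucose, was near 0, with 3 of 5 markers at 0 in all 12 libraries and at most 0.303 CPM in sum. The part of these measures in the fasting differences was not tested.

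Between the labels, no member passed in either feeding state. For fed livers, 0 of the 10 passed the edgeR test and 0 passed in DESeq2, and 1, Pck2, had an unadjusted p under 0.05. Over all genes, 0% were called in that comparison by edgeR, with 876 genes at an unadjusted p under 0.05, and DESeq2 called 12. For fasted livers, 0 members passed by either tool and 1, Fbp1, was under 0.05 unadjusted, against 0% of all genes, with 685 under 0.05 unadjusted and 4 called by DESeq2. With both feeding states averaged, 0 members and 0% of all genes passed by edgeR, Fbp1 again being the 1 member under 0.05 unadjusted among 859 genes, and DESeq2 called 16 genes and 0 members. The difference of the fasting response between labels gave 0 members and 0% of genes by edgeR, 1 member and 663 genes under 0.05 unadjusted, and 3 genes and 0 members by DESeq2.

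The intervals of these differences set what could have been seen. With both feeding states averaged, the NTS KO to NTS WT ratio of Pcx was 0.958 (95% interval 0.805 to 1.14), that of Slc37a4 1.07 (0.885 to 1.29), that of Aqp9 1.05 (0.888 to 1.24), that of Gk 1.06 (0.895 to 1.25) and that of Gpd1 0.902 (0.745 to 1.09). Those of Pck1, 0.966 (0.566 to 1.65), and G6pc, 0.917 (0.659 to 1.27), were less closely bounded. With both feeding states averaged, a difference of the size of the fasting change lay outside the gene's interval for Slc37a4 (2.81-fold), Gk (1.91-fold) and Pck1 (2.39-fold). For Pck1 a difference up to 1.65-fold lay inside it, and its interval in fasted livers alone took in the 2.39-fold change.

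The members nearest to a difference between labels were Pck2 and Fbp1. In fed livers, Pck2 was 1.73, 1.85 and 3.10 CPM under the NTS WT label and 3.41, 3.80 and 5.12 CPM under the NTS KO label, with no overlap (log2 0.89, SE 0.32, unadjusted p = 0.0147, adjusted p = 0.734 by edgeR). Its fasting difference was 1.21 lower on the log2 scale under the NTS KO label, written as -1.21 with SE 0.45 (unadjusted p = 0.0177, adjusted p = 0.897). In fasted livers, Fbp1 was 817, 896 and 1032 CPM under NTS WT and 1152, 1197 and 1394 CPM under NTS KO, with no overlap and a ratio of 1.36 (log2 0.45, SE 0.15, unadjusted p = 0.00888, adjusted p = 0.917). Gpd1 in fed livers was the other member without overlap, 280 to 324 CPM under NTS WT and 239 to 260 CPM under NTS KO (log2 -0.27, SE 0.18, adjusted p = 0.814). In all, 2 members did not overlap between labels in fed livers, where 10.7% of all genes did not, and 1 in fasted livers, where 12.2% did not. Nts had counts only under the NTS KO label, for a reason not tested, so the directions belong to the labels alone.

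**Figure D3:**
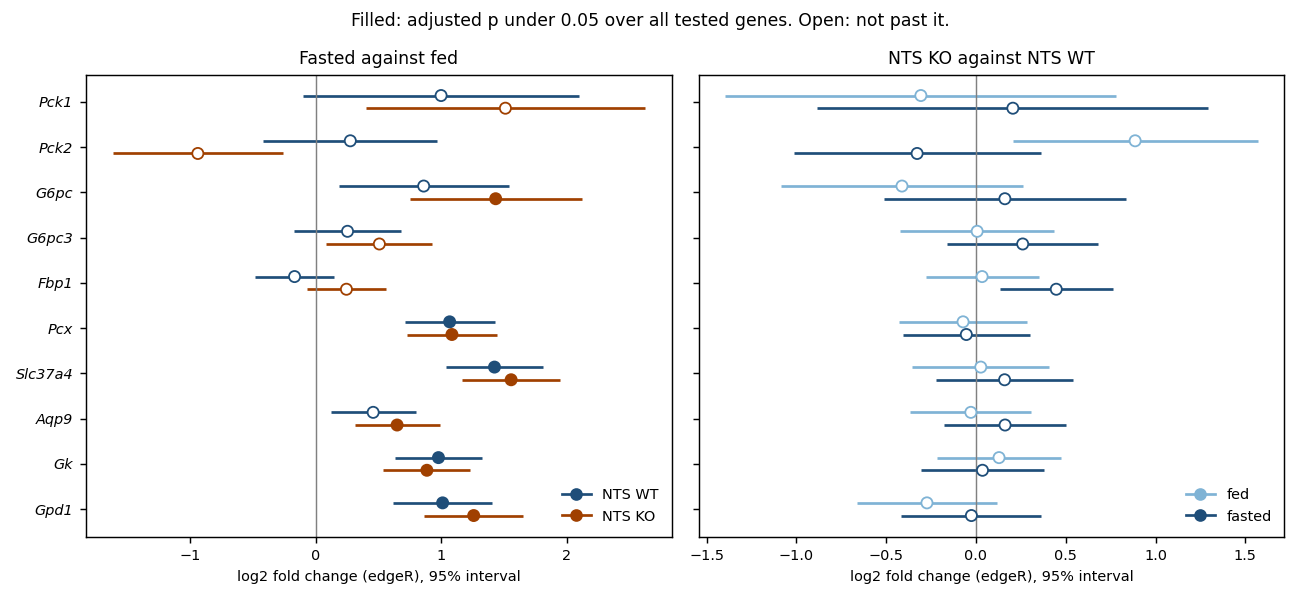
Log2 fold change with its 95% interval from edgeR for each member, fasted against fed in each label (left) and NTS KO against NTS WT in each feeding state (right), with filled points for an adjusted p under 0.05. On the left 4 members are filled for NTS WT and 6 for NTS KO, and on the right 0 are filled.

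Ratios of 2 genes within a library need no scaling between libraries and set a gene against its counterpart. They were compared between fasted and fed livers by a two-sided exact permutation test within labels over 400 relabelings, which can give no p below 0.005, adjusted over 6 ratios, of which 5 are given here. Pck1 to Pklr, the liver pyruvate kinase, went from 2.67 ± 1.18 to 5.58 ± 0.32, a difference of 2.91 with no overlap, although mouse 303 lay at 0.39 when the other 5 fed livers lay between 2.75 and 3.83 (exact permutation p = 0.005, adjusted p = 0.01). Fbp1 to Pfkl, the liver phosphofructokinase, went from 4.81 ± 0.14 to 5.58 ± 0.22, a difference of 0.77 with no overlap (exact permutation p = 0.005, adjusted p = 0.01). Of the pair, Pfkl fell by the edgeR test and Fbp1 did not pass it.

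Ratios between 2 forms of an enzyme moved less evenly. Pck1 to Pck2, the cytosolic over the mitochondrial form, was 8.53 ± 1.26 in fed and 10.3 ± 0.62 in fasted livers on the log2 scale, a difference of 1.78 (exact permutation p = 0.015, adjusted p = 0.0225) with overlap. The difference was 0.73 under the NTS WT label and 2.82 under the NTS KO label, and the contrast between these was not tested. G6pc to G6pc3 differed by 0.72 (exact permutation p = 0.07, adjusted p = 0.084), with mice 282 and 290 among the fed livers. It passed without mouse 282 (0.85, adjusted p = 0.042) or mouse 290 (0.92, adjusted p = 0.024). Gpd1 to Gpd2, the cytosolic over the mitochondrial glycerol-3-phosphate dehydrogenase, differed by -0.29 (exact permutation p = 0.35, adjusted p = 0.35), and both genes were higher in fasted livers by the edgeR test.

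**Figure D4:**
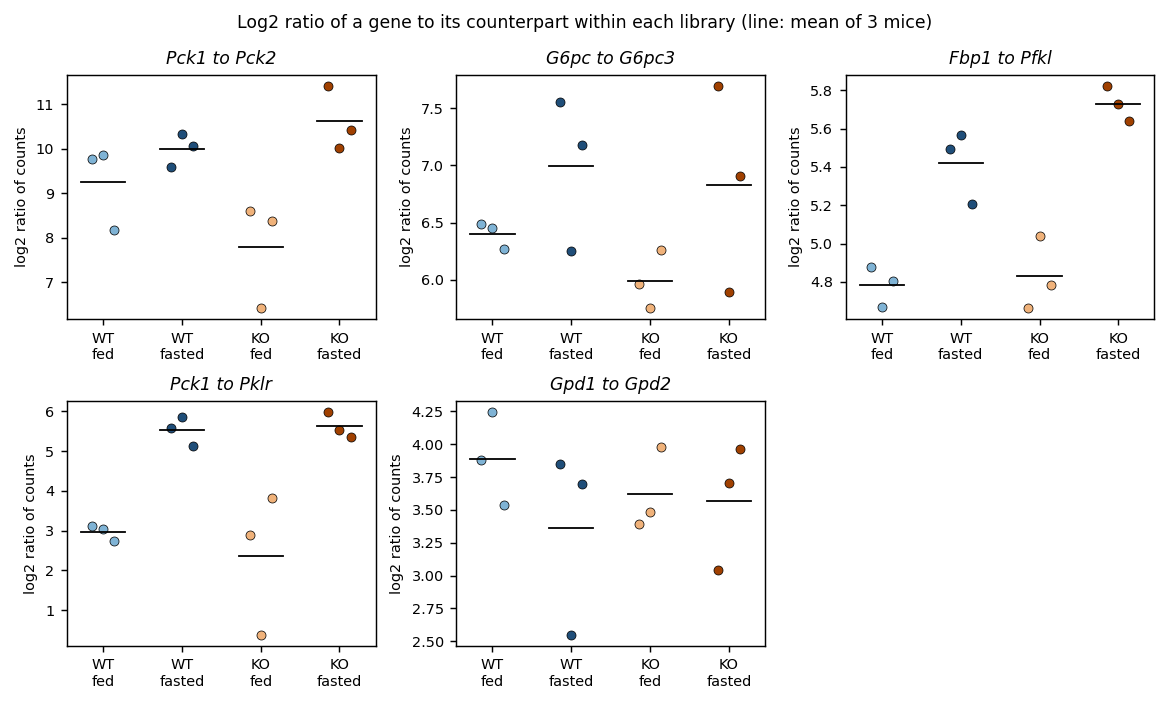
Log2 ratio of the counts of a member to its counterpart in each mouse, 1 panel per pair, with the mean of 3 mice as a line. Fbp1 to Pfkl and Pck1 to Pklr separate the 6 fed from the 6 fasted livers, and the other 3 pairs overlap.

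The genes around the route were described by list, each with genes named among the 3 of smallest p in the average of both labels. In that average 16% of all genes tested were higher and 16.8% lower, the shares to set beside the counts of each list. Of 7 genes of the opposing glycolytic steps, 5 were lower and 0 higher in fasted livers. Pklr fell by 1.48 (SE 0.24, adjusted p = 0.00102) and Pfkl by 0.73 (SE 0.12, adjusted p = 0.000407) on the log2 scale. Of 8 enzymes shared with glycolysis, 4 were higher and 0 lower. Aldoa, an aldolase, rose by 0.57 (SE 0.11, adjusted p = 0.00129) and Eno1, an enolase, by 0.43 (SE 0.10, adjusted p = 0.00393) on the log2 scale. Aldoa, Eno1 and Ldha have close copies in the mouse genome, so the division of reads among copies is uncertain for them.

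Of 12 genes of lactate, alanine and pyruvate supply, 6 were higher and 0 lower, with log2 changes of 1.19 (SE 0.13) for Slc16a7, a monocarboxylate carrier, 1.03 (SE 0.14) for Ldha, lactate dehydrogenase A, and 1.12 (SE 0.18) for Gpt2, an alanine aminotransferase. Of 9 genes that handle oxaloacetate and the malate-aspartate shuttle, 6 were higher and 1 lower. Got1, the cytosolic aspartate aminotransferase, rose by 1.16 (SE 0.18) and Slc25a10, the dicarboxylate carrier, by 0.81 (SE 0.11), while Slc25a1, the citrate carrier used in fat synthesis, fell by 0.87 (SE 0.10) on the log2 scale.

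Of 10 other glycerol genes, 7 could be tested, and 3 were higher and 0 lower. Gpd2 held 17.1 to 25.9 CPM in fed and 45.5 to 85.8 CPM in fasted NTS WT livers, and 15.1 to 23.9 and 43.5 to 56.1 CPM in NTS KO livers (log2 1.40, SE 0.18, adjusted p = 0.00013). Tkfc, which phosphorylates dihydroxyacetone, rose by 0.70 (SE 0.15). Aqp3, another glycerol channel, had 0, 1 and 1 counts in fed and 8, 14 and 17 in fasted NTS WT livers, a ratio of 17.0 with a counting interval of 4.40 to 145. Under the NTS KO label it had 0 counts in every fed library and 7, 15 and 17 when fasted, at least 4.57-fold higher against the floor of 3 counts per library. At its highest, Aqp3 came to 0.736 CPM, far under Aqp9.

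Of 8 genes of glucose release and partners, 7 were tested, with 2 higher and 2 lower. Fbp2, the muscle form of fructose-1,6-bisphosphatase, went from 5 to 54 counts over the 3 NTS WT livers and from 7 to 47 over the 3 NTS KO livers, ratios of 9.40 (counting interval 3.79 to 30.1) and 6.94 (3.12 to 18.2), and reached at most 0.678 CPM in any library. Slc2a9, a urate carrier, fell by 0.48 (SE 0.11) and Hsd11b1, which regenerates active glucocorticoid, by 0.33 (SE 0.10).

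Of 19 regulators, 6 were higher and 1 lower, the median log2 change being 0.27. Trib3, a pseudokinase that binds AKT, rose by 1.61 (SE 0.22), from 2.53 ± 0.192 to 7.11 ± 0.55 CPM in NTS WT and from 2.70 ± 1.34 to 8.99 ± 2.93 CPM in NTS KO livers. Creb3l3, a hepatic transcription factor of the CREB family, rose by 0.72 (SE 0.14) and Ppara, the fatty acid receptor that drives the fasting response, by 0.75 (SE 0.15). Of 7 hormone receptors, 6 were tested, with 1 higher and 1 lower, shares near those of all genes. Adra1b, the main alpha-1 adrenergic receptor of mouse liver, fell from 56.5 ± 10.8 to 13.7 ± 2.34 CPM in NTS WT and from 62.1 ± 10.2 to 13.1 ± 3.55 CPM in NTS KO livers (log2 -2.14, SE 0.16). Lepr, the leptin receptor, rose by 2.57 (SE 0.36), and Igf1r had a log2 change of 0.34 (SE 0.18, adjusted p = 0.167). In these 8 lists 0 genes passed by edgeR in any comparison between labels or in the difference of the fasting response.

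**Figure D5:**
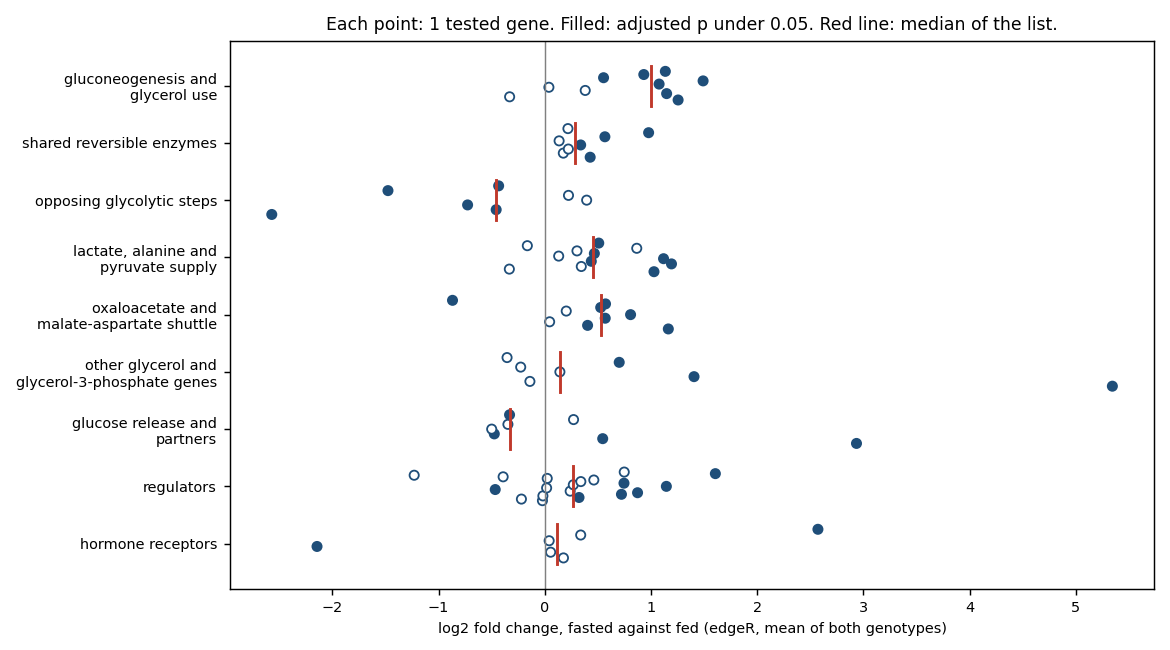
Log2 fold change of each tested gene, fasted against fed with both labels averaged, for the 10 members and the 8 lists around them, with filled points for an adjusted p under 0.05 and a red line at the list's median. The members have a median of 1.00, the opposing glycolytic steps one of -0.46, and Aqp3 at 5.34 is a gene near 0 counts in fed livers, whose fitted value depends on the prior count.

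The genes whose pattern over the 12 mice was most like that of a member were named by Pearson's r of log2 CPM, given as a description, since all 12 points share the split into fed and fasted livers. Slc37a4 ran closest to Cdip1 (r = 0.99, and 0.87 after each group's mean was taken out), Gk to Slc22a5 (0.99 and 0.94), Pcx to Etfdh (0.98 and 0.73), Gpd1 to Igsf5 (0.97 and 0.79) and Aqp9 to Gm4952 (0.96 and 0.89). Pck1 ran closest to Angptl4, a fasting-induced secreted inhibitor of lipoprotein lipase (0.95 and 0.90), and G6pc to Ctsd (0.92 and 0.76). The members that did not pass had their closest partners in G6pc3 with mt-Nd5 (0.92 and 0.86), Fbp1 with Rhbdd3 (0.91 and 0.79) and Pck2 with Map2k1 (0.88 and 0.73). Among the members themselves, Pcx and Gpd1 were closest over the 12 mice (0.96, and 0.67 within groups). Pck2 and G6pc ran most opposite over the 12 mice (-0.57, and -0.44 within groups). Within groups the order differed, with Pck2 and Slc37a4 closest (0.83) and G6pc3 and Fbp1 most opposite (-0.62).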

How the data were processed

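Liver RNA of 12 mice was measured. The authors deposited 1 table of expected counts, that is, read numbers estimated for each gene, with fractions, before any scaling. Trimmomatic and RSEM are named in the submitters' processing notes, with build GRCm38 and no versions. Columns of other samples numbered 0. Groups came from the labels.

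These values were rounded. Genes were filtered with filterByExpr of edgeR 4.0.16 under R 4.3.3, and libraries were scaled by TMM. A single model held all 4 group means, tested by robust quasi-likelihood. The 7 contrasts were fasted against fed in each label and on average, NTS KO against NTS WT in each feeding state and on average, and the difference of the fasting response. Adjusted p under 0.05 over 13812 genes counted as passing. DESeq2 1.42.0, other scalings, filters, lengths and pseudocounts, and leaving out each mouse were alternatives. Log2 ratios had 0.5 added to each count. Depth of 21999647 to 45273069 counts limits precision, and floors and counting intervals (95%, exact binomial) cover counting error only. On simulated counts for NTS WT fasted against fed (13658 genes), 58 of 100 genes changed 2-fold and 79 of 100 changed 4-fold were recovered, with 6 calls among 13461 unchanged genes. No other genes were changed there, while in the data 8.91% of genes were higher and 9.19% lower. The adjusted threshold is thus not alike, and these recoveries do not give the power of the real comparison. Promoters are RefSeq sequences of GRCm38.p6. Lengths are those of GENCODE transcripts, matched by Ensembl identifier. Mice are separate animals.

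Named genes are the 10 members, the 3 genes of smallest p per pathway list, some of which are not reported here, and each member's closest partners by Pearson's r, of which the first 3 were computed and the closest is named. Genes named as markers, and the pairs among members, were picked after their values were seen. Members and lists were chosen with earlier results of these data known.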

Additional observations from a re-analysis of the deposited data

How the results depend on the processing

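Leaving out 1 mouse at a time took no member's passing call away, gained 11 calls (9 for members, 2 for a ratio) and turned the sign of 20 results, none of them past the threshold. Their log2 fold changes with 1 mouse left out ran as follows. For NTS KO against NTS WT in fed livers, the range was Slc37a4 -0.092 to 0.19, Gk -0.0093 to 0.38, G6pc3 -0.096 to 0.13, Aqp9 -0.15 to 0.10, Pck1 -0.74 to 0.13, Fbp1 -0.079 to 0.13 and Pcx -0.21 to 0.031. Averaged over feeding states, the range was Pck1 -0.27 to 0.17, Pcx -0.13 to 0.016 and G6pc -0.34 to 0.0045. For the difference of the fasting response, the range was Gk -0.34 to 0.052, Pcx -0.085 to 0.17 and Slc37a4 -0.037 to 0.28. For fasted against fed on average, the range was Fbp1 -0.0080 to 0.096. In fasted livers, the range was Pcx -0.15 to 0.10, Gpd1 -0.24 to 0.13, G6pc -0.28 to 0.42, Gk -0.025 to 0.086, Pck1 -0.014 to 0.40 and Slc37a4 -0.013 to 0.30. The log2 ratio of G6pc to G6pc3 ranged from 0.56 to 0.92. Members past the threshold ranged from 4 to 5 in NTS WT, 6 to 7 in NTS KO and 7 to 8 on average, while the share of all genes called in the same fits ranged from 8.7% to 17.1%, 9.68% to 18.7% and 26.5% to 32.6%, and 0 members passed in each comparison between labels. Other scalings, a filter of 10 counts in every mouse, removal of mitochondrial genes and DESeq2 took no call of a member away. Without the count filter Pck1 lost its call on average, and the cause was not tested. No paired analysis was possible because no mouse number is shared between groups. With 3 mice per group, differences between labels of the size of the spread between mice may go undetected, and the power to detect them was not tested. Nts had counts only under the NTS KO label, and the reason was not tested.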
